A study of Mus musculus with 33 samples.

Results

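The 34 genes described here encode proteins of DNA replication and of cell division, and their transcripts were followed through 11 sorted cell subsets of a mouse model of transplant tolerance. They were taken as the rows of the count tables whose Ensembl mouse identifier has 1 of 34 listed symbols in the GRCm38 annotation, and all 34 were found among the 31054 genes of the tables. Of these, 10 belong to S phase (Mcm2, Mcm3, Mcm4, Mcm5, Mcm6, Mcm7, Pcna, Rrm1, Rrm2 and Tyms), 22 to mitosis (Mki67, Top2a, Ccna2, Ccnb1, Ccnb2, Cdk1, Cdc20, Birc5, Bub1, Bub1b, Aurka, Aurkb, Plk1, Kif11, Kif20a, Kif23, Tpx2, Cenpe, Cenpf, Cenpa, Ube2c and Nusap1), and 2 (Stmn1 and Hmgb2) were kept apart. The rule uses no measured value, but the list was drawn up with earlier results of these data known.

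RNA-Seq was performed on 33 libraries, 3 from each subset, made from small numbers of sorted cells pooled from several mice. All mice were DEREG mice on the C57BL/6 background, in which the Foxp3 promoter drives the diphtheria toxin receptor and EGFP, so that GFP marks regulatory T cells (Tregs). Tolerant mice carried porcine neonatal islet cell clusters (NICC) under the renal capsule, received CTLA4-Fc, which blocks CD28 costimulation, and MR-1, an antibody to CD40L, and were sorted on day 100 after transplantation. Naive mice had neither a transplant nor treatment. There were 7 Treg subsets: SP/naive Tregs and DLN/naive Tregs from the spleen and the kidney draining lymph node of naive mice, graft Tregs from the grafts of tolerant mice, and SP/CD127-/lo, SP/CD127hi, DLN/CD127-/lo and DLN/CD127hi Tregs from the spleen and draining lymph node of tolerant mice, CD127 being the IL-7 receptor alpha chain. The 4 Foxp3- subsets were CD4+ T cells and CD45+CD4- cells from the spleen of naive and of tolerant mice. The DLN/naive Tregs came from female mice and the tolerant mice were male. Few naive mice were used for the spleen as well as for the lymph node, so the naive libraries of both organs may not be independent. The DLN libraries were sequenced on a MiSeq and all others on a NextSeq instrument, and lymph node and sequencer therefore cannot be told apart. Nothing in the labels states that the 3 libraries of a subset came from separate mice, and p-values then measure only the spread between these libraries.

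Genes of DNA synthesis are switched on at the G1 to S transition, mainly by E2F factors. Genes of chromosome condensation, spindle assembly and chromosome segregation follow in G2 and mitosis, when the B-Myb and MuvB complex and FoxM1 act through an element called the cell cycle homology region (CHR), often beside CCAAT boxes bound by NF-Y. Resting lymphocytes hold little of either kind of transcript, and T cells that divide after activation hold much of both.

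RefSeq windows of 300 bases on GRCm38.p6, from 250 bases before to 50 after a start site, were matched for 28 of the 34 genes (not Mcm4, Ccna2, Aurkb, Kif20a, Tpx2 and Stmn1). On both strands, the CHR letters, TTTGAA in the common form and TTCGAA in the rarer palindromic form, lay in the windows of 14 of 18 mitosis genes and 2 of 9 S phase genes, against 19.23% of all 32851 windows. The CCAAT letters lay in 16 of 18 and 8 of 9, against 37.41%. The E2F letters TTTGGCGC, TTTCCCGC, TTTGCCGC or TTTCGCGC lay in 1 of 18 (Cdk1) and 4 of 9 (Mcm3, Mcm5, Mcm6 and Mcm7), against 2.26%. The window of Hmgb2 held CCAAT and CHR letters and no E2F letters. These matches describe letters and not bound sites. Shown are 6 windows of genes to which the results return: 4 mitosis genes called in comparisons of Tregs, an S phase gene with E2F letters, and Tyms. They lie at chr9:70421505-70421804 (Ccnb2, minus strand), chr2:164769679-164769978 (Ube2c, plus strand), chr11:99024140-99024439 (Top2a, minus strand), chr11:117848987-117849286 (Birc5, plus strand), chr1:128359656-128359955 (Mcm6, minus strand) and chr5:30073576-30073875 (Tyms, minus strand). Each spans the promoter and the first transcribed bases of the gene and is written 5′ to 3′ on the strand of the gene. Capitals mark the CCAAT box (which reads ATTGG where it lies on the other strand), both forms of the CHR and, in Mcm6, the E2F letters. In Ube2c a CCAAT match on each strand overlaps, and in Mcm6 the first E2F stretch is an overlapping match on each strand. The windows of Birc5 and Tyms held none of these letters.
Ccnb2: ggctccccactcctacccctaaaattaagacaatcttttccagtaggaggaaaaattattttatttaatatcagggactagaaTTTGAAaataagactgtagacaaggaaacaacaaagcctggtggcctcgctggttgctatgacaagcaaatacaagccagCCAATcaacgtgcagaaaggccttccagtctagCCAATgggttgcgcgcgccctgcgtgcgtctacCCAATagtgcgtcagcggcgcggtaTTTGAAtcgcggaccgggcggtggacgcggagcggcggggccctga
Ube2c: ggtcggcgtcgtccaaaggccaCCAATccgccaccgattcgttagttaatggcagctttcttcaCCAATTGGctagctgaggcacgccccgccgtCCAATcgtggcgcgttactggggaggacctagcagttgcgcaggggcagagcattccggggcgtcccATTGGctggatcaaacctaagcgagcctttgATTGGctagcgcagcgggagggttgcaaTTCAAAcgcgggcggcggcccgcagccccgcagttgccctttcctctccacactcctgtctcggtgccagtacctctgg
Top2a: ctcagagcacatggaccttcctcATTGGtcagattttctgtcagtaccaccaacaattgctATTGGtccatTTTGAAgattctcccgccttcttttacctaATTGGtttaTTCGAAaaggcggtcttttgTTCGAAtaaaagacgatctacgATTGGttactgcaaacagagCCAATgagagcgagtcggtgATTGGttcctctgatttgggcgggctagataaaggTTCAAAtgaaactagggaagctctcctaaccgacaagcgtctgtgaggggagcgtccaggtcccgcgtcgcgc
Birc5: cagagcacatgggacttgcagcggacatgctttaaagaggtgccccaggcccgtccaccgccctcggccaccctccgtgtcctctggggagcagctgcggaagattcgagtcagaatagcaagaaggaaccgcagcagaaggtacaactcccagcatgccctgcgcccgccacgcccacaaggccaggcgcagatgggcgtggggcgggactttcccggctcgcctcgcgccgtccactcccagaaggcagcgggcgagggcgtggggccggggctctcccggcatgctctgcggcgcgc
Mcm6: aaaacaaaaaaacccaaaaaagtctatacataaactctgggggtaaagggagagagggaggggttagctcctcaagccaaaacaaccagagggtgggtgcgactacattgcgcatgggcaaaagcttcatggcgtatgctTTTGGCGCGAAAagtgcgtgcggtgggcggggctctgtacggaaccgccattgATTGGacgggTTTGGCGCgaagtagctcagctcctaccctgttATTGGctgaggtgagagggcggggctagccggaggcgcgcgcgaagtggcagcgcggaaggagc
Tyms: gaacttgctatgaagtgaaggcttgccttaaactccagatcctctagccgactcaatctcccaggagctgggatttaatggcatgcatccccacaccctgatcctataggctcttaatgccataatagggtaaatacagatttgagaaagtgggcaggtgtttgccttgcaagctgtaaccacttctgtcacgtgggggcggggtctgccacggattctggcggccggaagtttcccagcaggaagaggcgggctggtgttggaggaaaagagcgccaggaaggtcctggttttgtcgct

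Depth limited what could be seen of these genes. Levels are given as CPM, the counts of a gene relative to the TMM scaled total of its library. The 24 spleen and graft libraries held 2550698 to 4615283 counts on genes and the 9 DLN libraries 844039 to 1935323, so that 3 counts, the limit that a count of 0 allows, correspond to 0.637 to 1.175 and to 1.63 to 3.11 CPM. These limits, and the exact 95% intervals given for ratios over few counts, cover counting error only. Reads were counted without strand, and 29.3% of the exon bases of Kif20a, 22.8% of those of Ube2c and 12.5% of those of Ccna2 also belong to a neighbouring gene (Cdc23, Tnnc2 and Exosc9), so these 3 genes are uncertain. Pcna, Tyms, Ccnb1 and Ccnb2 have named pseudogenes. Reads that map to several places were not counted on genes, so the levels of these genes may be too low.

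Marker genes of cell types fitted the labels, with exceptions. The 5 Treg markers (Foxp3, Il2ra, Ctla4, Ikzf2 and Tnfrsf18) summed to 5059 to 19340 CPM in Treg libraries and to at most 1814 in the Foxp3- libraries. The 5 T cell markers summed to 2187 to 8344 CPM in all CD4+ and Treg libraries. The 2 CD8 T cell markers reached 225 to 760 CPM, the 5 B cell markers 2393 to 5385 and the 3 NK cell markers 337 to 759 in CD45+CD4- cells. Markers of other cells were seen in single libraries and in whole subsets. The 7 erythroid markers, hemoglobin genes among them, summed to 563 CPM in SP/CD127-/lo replicate 3, 935 in SP/CD127hi replicate 3 and 317 in naive CD4+ replicate 1, and to at most 115 elsewhere. The 5 kidney epithelium markers were at 15.8 to 890 CPM in graft Tregs and at most 19.9 elsewhere. The 6 macrophage and monocyte markers summed to 576 to 849 CPM in DLN/CD127hi Tregs, and also reached 718 in DLN/CD127-/lo replicate 2, 469 in graft replicate 3, 341 and 428 in DLN/naive replicates 1 and 3, and at most 299 in splenic Tregs. The 4 plasma cell markers were at 142 to 1426 in DLN/CD127hi Tregs and at most 185 in the other Treg libraries. The 5 neutrophil and precursor markers were at most 16.6 in every Treg library and up to 2668 in tolerant CD45+CD4- cells.

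S phase genes were seen in most libraries. Each was above 3 counts in 27 to 33 of the 33 libraries (median 32), and their mean level per kilobase of exon ranged from 3.04 to 75.4 CPM (median 9.16), the highest being Pcna, the sliding clamp of the DNA polymerases. Their summed CPM was lowest in naive CD4+ T cells (392 ± 139, SD, n = 3), followed by naive CD45+CD4- cells (444 ± 94.2), tolerant CD4+ T cells (472 ± 47.6), SP/naive Tregs (495 ± 59.2) and tolerant CD45+CD4- cells (498 ± 102). The remaining 6 subsets, all Tregs, lay above, in the order SP/CD127hi (606 ± 54.3), DLN/CD127hi (618 ± 73.0), graft (642 ± 99.3), SP/CD127-/lo (649 ± 48.6), DLN/naive (743 ± 224) and DLN/CD127-/lo Tregs (760 ± 152). No neighbours in this order differed by more than the sum of their SDs.

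Mitosis genes were lower and far more uneven. Each was above 3 counts in 9 to 33 libraries (median 19.5), with a mean level per kilobase of 0.544 to 16.3 CPM (median 2.23), the highest being Ccnb2, the mitotic cyclin B2. Their summed CPM was 184 ± 58.8 (SD, n = 3) in naive and 185 ± 22.1 in tolerant CD4+ T cells. It was 303 ± 150 in SP/naive Tregs, 309 ± 25.5 in naive CD45+CD4- cells, 315 ± 108 in SP/CD127hi Tregs and 395 ± 125 in tolerant CD45+CD4- cells. The highest 5 subsets were DLN/CD127hi (497 ± 135), graft (642 ± 503), DLN/CD127-/lo (694 ± 217), SP/CD127-/lo (737 ± 243) and DLN/naive Tregs (772 ± 265), and again no neighbours differed by more than the sum of their SDs. By library, SP/CD127-/lo Tregs held 539, 663 and 1008 CPM, SP/CD127hi Tregs 259, 247 and 439 and tolerant CD4+ T cells 164, 182 and 208. The SP/CD127-/lo libraries thus lay above every SP/CD127hi and tolerant CD4+ library. The tolerant CD45+CD4- libraries lay between 253 and 489. Graft Tregs spread most, with 1177, 570 and 178 CPM in replicates 1, 2 and 3. Relative to the S phase sum of the same library, set at 100%, the mitosis sum had its lowest subset means in tolerant CD4+ T cells (39.7% ± 8.59), naive CD4+ T cells (52.0% ± 27.4) and SP/CD127hi Tregs (52.8% ± 20.9). The highest were in DLN/CD127-/lo (94.2% ± 34.02), graft (98.97% ± 68.8), DLN/naive (109% ± 48.2) and SP/CD127-/lo Tregs (115% ± 46.2). The genes with the highest levels weighed most in the sums. Pcna had a mean of 181 CPM over all libraries, and Cenpa a median of 73.8 CPM over the CD4+ libraries. In bulk samples of this kind, fewer cycling cells and less RNA per cycling cell cannot be told apart.

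**Figure D1:**
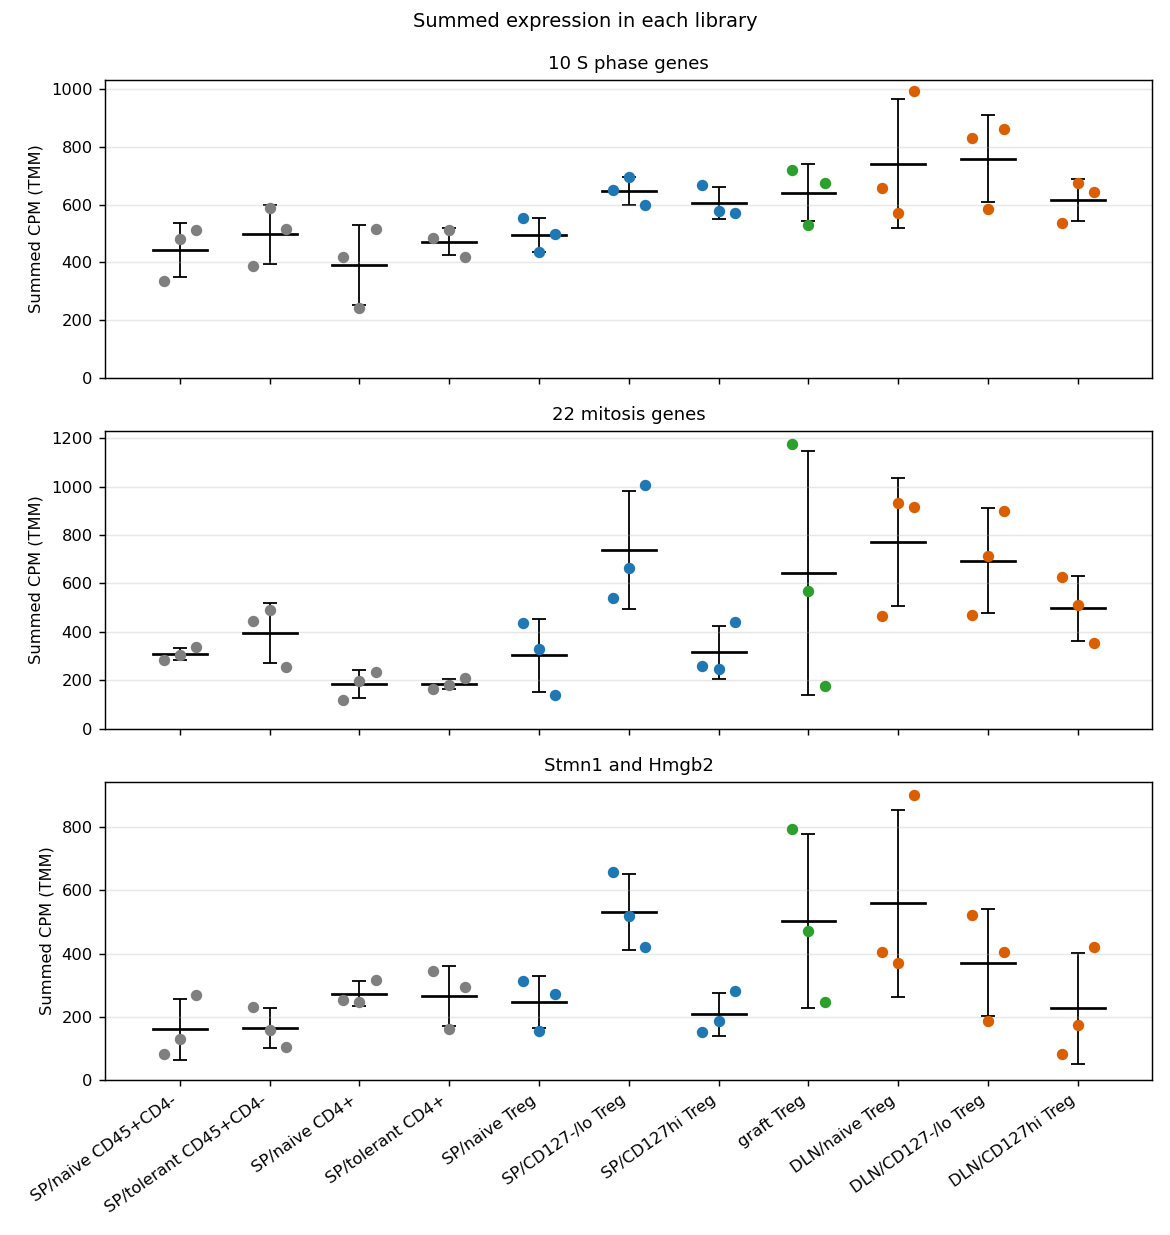
Summed CPM (TMM scaled) of the 10 S phase genes, of the 22 mitosis genes and of Stmn1 and Hmgb2 together in each of the 33 libraries, by subset, 1 point per library (grey, Foxp3- subsets; blue, splenic Tregs; green, graft; orange, DLN), with the mean and SD of each subset (n = 3) as line and bar. The mitosis sums of the 3 SP/CD127-/lo libraries (539 to 1008) lie above those of SP/CD127hi Tregs (247 to 439) and tolerant CD4+ T cells (164 to 208), and the graft libraries range from 178 to 1177.

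Kif23, Kif11 and Bub1b of the mitosis genes ranged widely between single libraries. Kif23, a kinesin of the central spindle, was above 3 counts in 27 of 33 libraries, with a median of 13.8 CPM and a highest value of 81.8. Kif11, the kinesin that pushes the spindle poles apart, was above 3 counts in 23 libraries and reached 98.6. Bub1b, a spindle checkpoint protein, was above 3 counts in 17 libraries and had its lowest subset mean, 0.639, in the graft and its highest, 19.8, in tolerant CD45+CD4- cells. Among the S phase genes, Mcm7 of the replicative helicase had subset means from 28.6 in SP/naive Tregs to 58.8 in tolerant CD4+ T cells.

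**Figure D2:**
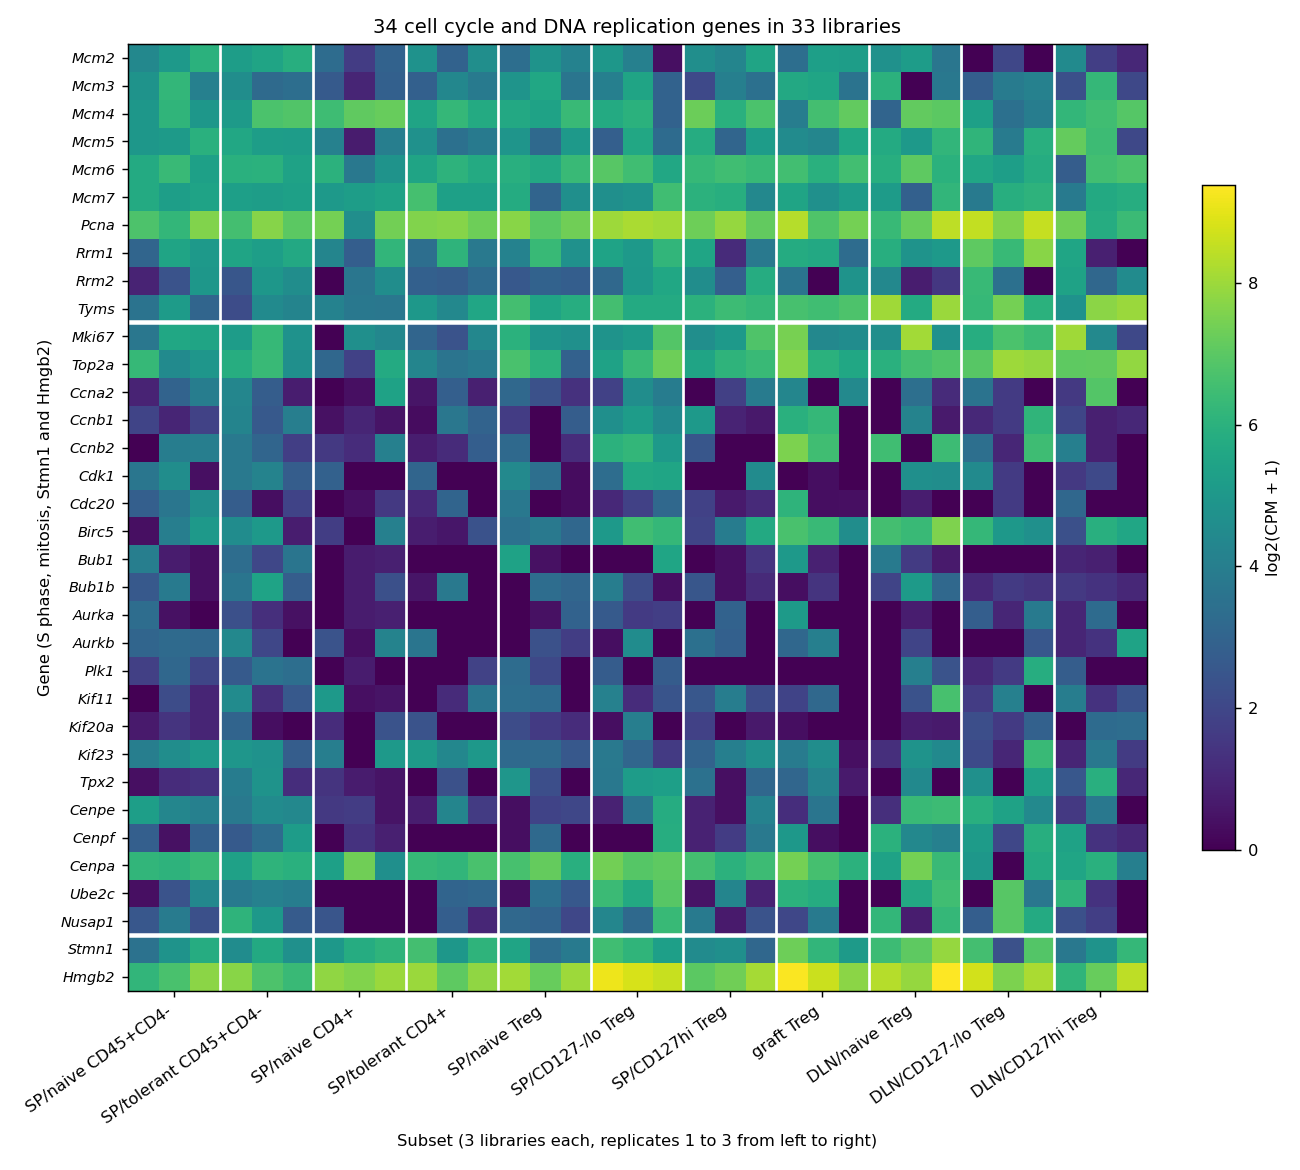
Level of each of the 34 genes, as log2(CPM + 1), in each of the 33 libraries, with replicates 1 to 3 of a subset from left to right. Stmn1 and Hmgb2 are above 3 counts in all 33 libraries and S phase genes in at least 27, while many mitosis genes are at or near 0 in single libraries of a subset and high in another.

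Splenic Tregs were compared with splenic Foxp3- CD4+ T cells to see how the cycling genes differ between these T cell classes. Tregs held more of 4 mitosis genes: Top2a, the DNA topoisomerase that untangles sister chromatids, Birc5, the survivin subunit of the chromosomal passenger complex, Cenpf, a kinetochore and nuclear matrix protein, and Ube2c, the ubiquitin conjugating enzyme of the anaphase promoting complex. Over the 9 Treg libraries Top2a was at 6.57 to 156 CPM (median 67.6), against 2.53 to 52.5 (median 12.3) over the 6 CD4+ libraries. Birc5 was at 2.76 to 90.1 (median 14.4) against 0 to 16.1 (median 1.49). For both genes the ranges overlapped and the Treg median was higher. Ube2c was at 0.275 to 122 (median 10.2) against 0 to 7.73, with 4 of the 6 CD4+ libraries at 0. Cenpf was at 0 to 57.2 (median 0.849) in Tregs, of which 3 libraries were at 0, against 0 to 1.58, with 4 of 6 at 0.

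The edgeR quasi-likelihood test with Benjamini-Hochberg adjustment called these 4 of the 34 genes at an adjusted p under 0.05, where 1.83% of all 25347 genes tested were called. The log2 fold changes were 2.02 ± 0.54 (SE) for Top2a (adjusted p = 0.0200), 2.90 ± 0.81 for Birc5 (0.0296), 4.94 ± 1.23 for Ube2c (0.00884) and 5.12 ± 1.38 for Cenpf (0.0208). The fitted values of Ube2c and Cenpf depend on the prior count, since Ube2c was at 0 in all naive and Cenpf in all tolerant CD4+ libraries. By means over subsets, Ube2c was at 32.3 CPM in Tregs and 2.49 in CD4+ T cells, and Cenpf at 9.06 and 0.394. Mki67, the proliferation antigen Ki-67, had 23.99 to 117 CPM in Tregs and 0 to 24.7 in CD4+ T cells and did not pass (2.03 ± 0.67). Neither did Bub1, a kinase of the spindle checkpoint (5.17 ± 1.56, adjusted p = 0.0556), with 4 counts in all CD4+ libraries and a ratio of pooled counts of 49.9 (interval 19.3 to 184). Among S phase genes none passed, with Tyms, the thymidylate synthase, coming nearest (1.69 ± 0.54, adjusted p = 0.0861). The median log2 fold change was 1.496 over the 22 mitosis genes, 20 of them above 0, and 0.86 over the 10 S phase genes, 8 of them above 0, against -0.08 over all genes tested.

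Other settings kept part of these calls. All 4 genes were also called by the likelihood ratio test, by DESeq2 and with RLE scaling. Cenpf and Ube2c lost their calls in the quasi-likelihood test without legacy mode, Top2a alone was left under the stricter filter, and Ube2c alone with ComBat-Seq. Further members gained calls. Tyms, an S phase gene, was called by DESeq2 (adjusted p = 0.00755), without legacy mode (0.0179) and with the compared libraries alone (0.00798). Mki67 and Tpx2 were called in the last 2 of these settings. Bub1 was called by the likelihood ratio test, by DESeq2, without a filter and with the compared libraries alone. Single libraries decided part of the 4 calls as well. Ube2c lost its call without SP/CD127hi replicate 2 (adjusted p = 0.0525). Cenpf lost it without SP/CD127-/lo replicate 3, where its log2 fold change was 2.19 (adjusted p = 0.9999), without SP/naive Treg replicate 2 (3.80, 0.213), and without naive CD4+ replicate 1 or any of the 3 tolerant CD4+ libraries (4.81 to 5.12, 0.0584 to 0.0750). Top2a lost it without SP/naive Treg replicate 1, SP/CD127-/lo replicate 3, naive CD4+ replicate 1 or 2 or tolerant CD4+ replicate 2 or 3 (1.75 to 1.99, 0.0621 to 0.104). Birc5 lost it without SP/CD127-/lo replicate 2, SP/CD127hi replicate 3, naive CD4+ replicate 1 or 2 or tolerant CD4+ replicate 1 or 2 (2.44 to 2.80, 0.0589 to 0.116). SP/CD127-/lo replicate 3, where Cenpf was at 57.2 CPM, is a library with erythroid transcripts (563 CPM), and their part in the result was not tested.

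In naive mice alone, SP/naive Tregs and naive CD4+ T cells had no member called by the edgeR quasi-likelihood test, where 0.264% of all genes were. At an unadjusted p under 0.05 there were 3 (Tyms, Bub1 and Ube2c, all higher in Tregs), where 6.71% of all genes had such a p. The likelihood ratio test, DESeq2 and the quasi-likelihood test without legacy mode called 0. Tyms was at 94.4, 43.3 and 57.1 CPM in SP/naive Tregs and 16.7, 12.7 and 12.2 in naive CD4+ T cells, and the groups did not overlap (2.23 ± 0.83, adjusted p = 0.461). Higher in all 3 Treg libraries than in any naive CD4+ library were also Mcm2 and Mcm3, subunits of the replicative helicase, Mki67 and Ube2c. That makes 5 of 34, where 5.35% of all genes were higher in this way. The summed T cell markers (2736 to 5104 CPM in SP/naive Tregs against 5392 to 6409) and macrophage and monocyte markers (25.8 to 103 against 0 to 3.17) did not overlap either, and their part in the result was not tested. The median log2 fold change was 0.66 for S phase and 1.61 for mitosis genes, against -0.09 for all genes.

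SP/CD127-/lo Tregs were compared with the splenic CD4+ T cells of tolerant mice. Of the 22 mitosis genes, 11 were higher in every Treg library than in any CD4+ library: Mki67, Top2a, Birc5 and Ube2c, the mitotic cyclins Ccnb1 and Ccnb2 and their kinase Cdk1, Aurka, the kinase of the spindle poles, and Tpx2, its activator, Cenpa, the histone variant of the centromere, and Nusap1, which bundles spindle microtubules. With the S phase genes Pcna and Tyms and with Hmgb2, a chromatin protein high in dividing cells, 14 of the 34 genes did so, where 5.06% of all genes did. The summed B cell markers did not overlap either (22.9 to 42.2 CPM in SP/CD127-/lo against 2.49 to 8.498 in tolerant CD4+ libraries), and their part in the result was not tested. Birc5 was at 31.9, 90.1 and 74.5 CPM in SP/CD127-/lo Tregs and at 0.684, 0.498 and 4.12 in tolerant CD4+ T cells. Ube2c was at 82.5, 51.1 and 122 against 0, 7.23 and 7.73. Ccnb2 was at 63.9, 73.2 and 32.3 against 0.684, 1.25 and 5.92. Each SP/CD127-/lo library was thus several times above the highest CD4+ library for these 3 genes.

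Birc5 was the 1 member that the edgeR quasi-likelihood test called (5.18 ± 1.32, adjusted p = 0.0402), where 0.284% of all genes were called. It lost the call without tolerant CD4+ replicate 1 (4.80, 0.339) or 2 (4.75, 0.374) and without SP/CD127-/lo replicate 2 (4.88, 0.142) or 3 (5.08, 0.102). Cenpf (8.80 ± 2.34, adjusted p = 0.0681) and Bub1 (8.45 ± 2.59, 0.208) had larger fitted values, which depend on the prior count because both genes were at 0 in all 3 tolerant CD4+ libraries. In SP/CD127-/lo Tregs both were seen in replicate 3 alone (57.2 and 44.9 CPM), and against the limit of 3 counts per library the means were at least 25.9-fold and 20.4-fold higher. Top2a (2.70 ± 0.83, adjusted p = 0.205), Ccnb2 (4.41 ± 1.54, 0.337) and Ube2c (4.09 ± 1.51, 0.373) did not pass. Birc5 also lost its call under the stricter filter and with ComBat-Seq. Of the other tests, the likelihood ratio test called 0 members, DESeq2 3 and the quasi-likelihood test without legacy mode 8, Ccnb2 and Ube2c among them. The median log2 fold change was 2.47 over the mitosis genes, 21 of 22 above 0, and 0.62 over the S phase genes, 7 of 10 above 0, against 0.00 over all genes. Leaving out SP/CD127-/lo replicate 3 lowered the mitosis median to 1.89, the lowest of the 6 values without 1 library.

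Against SP/naive Tregs, SP/CD127-/lo Tregs had no member called by the edgeR quasi-likelihood test (0.0710% of all genes). There were 5 with an unadjusted p under 0.05, all higher in SP/CD127-/lo Tregs, where 5.46% of all genes had one: Ccnb2 (4.13 ± 1.52), Ube2c (4.04 ± 1.51), Cenpe, a kinetochore motor (3.45 ± 1.59), Birc5 (2.67 ± 1.17) and Hmgb2 (1.06 ± 0.51), with adjusted p of 0.648 to 0.859. With the quasi-likelihood test without legacy mode 2 were called, Ccnb2 and Ube2c, and with the likelihood ratio test and DESeq2 0. In SP/naive Tregs Ccnb2 was at 8.26, 0 and 1.26 CPM and Ube2c at 0.275, 10.2 and 5.05, so that no library of either subset overlapped the other. Ccnb1, Birc5, Nusap1, Pcna, Hmgb2 and Rrm2, the small subunit of ribonucleotide reductase, were likewise higher in all 3 SP/CD127-/lo libraries, making 8 of 34, where 4.02% of all genes did so. The medians were 1.26 for mitosis and 0.15 for S phase genes. Reads on no gene (37.0 to 46.1% in SP/CD127-/lo, 47.2 to 61.6% in SP/naive libraries) and the summed T cell markers (5427 to 8344 against 2736 to 5104 CPM) separated these subsets too, and their part in the result was not tested.

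SP/CD127hi Tregs, set against SP/CD127-/lo Tregs of the spleen, held less of the mitosis transcripts in these libraries. Ccnb2 was at 4.67, 0 and 0 CPM in SP/CD127hi Tregs, Ube2c at 0.425, 18.4 and 0.869, and Hmgb2 at 130, 163 and 274, where SP/CD127-/lo Tregs had 569, 450 and 381. Pcna was at 157, 236 and 138 against 256, 291 and 268. None of these 4 genes overlapped between the subsets. Neither did Tpx2, Cenpa and Stmn1, which encodes a protein that destabilises microtubules, and all 7 were lower in SP/CD127hi Tregs, where 4.53% of all genes were lower in this way. Plk1, a kinase of mitotic entry and spindle formation, was at 0 in all 3 SP/CD127hi libraries and at 5.65, 0 and 5.57 in SP/CD127-/lo Tregs.

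None of these differences passed the edgeR quasi-likelihood test, which called 0 members and 0.0907% of all genes. There were 6 members with an unadjusted p under 0.05, all lower in SP/CD127hi Tregs, where 6.74% of all genes had one: Ccnb2 (-5.10 ± 1.59), Bub1 (-4.39 ± 2.15), Ube2c (-3.70 ± 1.48), Stmn1 (-1.86 ± 0.92), Hmgb2 (-1.30 ± 0.51) and Plk1, at least 4.63-fold lower against the limit of 3 counts. Their adjusted p ran from 0.448 to 0.733. The likelihood ratio test and DESeq2 called 0, the quasi-likelihood test without legacy mode 2 (Ccnb2 and Ube2c). Without SP/CD127hi replicate 1, which holds all the Ccnb2 counts of this subset, Ccnb2 was called (adjusted p = 0.0419). Both libraries left were at 0, so that it was at least 63.2-fold lower against the limit of 3 counts. The median over the mitosis genes was -1.55, with 2 of 22 above 0, and it lay between -2.13 and -1.08 without single libraries. It was -0.01 over the S phase genes and 0.03 over all genes. The replicates 3 of both subsets are the splenic Treg libraries with erythroid transcripts, and the mitosis median was -2.13 without that of SP/CD127hi and -1.08 without that of SP/CD127-/lo Tregs. Reads on no gene made up 50.4 to 55.9% in SP/CD127hi and 37.0 to 46.1% in SP/CD127-/lo libraries, and the T cell markers summed to 2664 to 3377 and 5427 to 8344 CPM. The CD8 T cell markers, low in both, summed to 0 to 10.4 and 14.1 to 26.3 CPM. None of these overlapped between the subsets, and their part in the result was not tested.

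**Figure D3:**
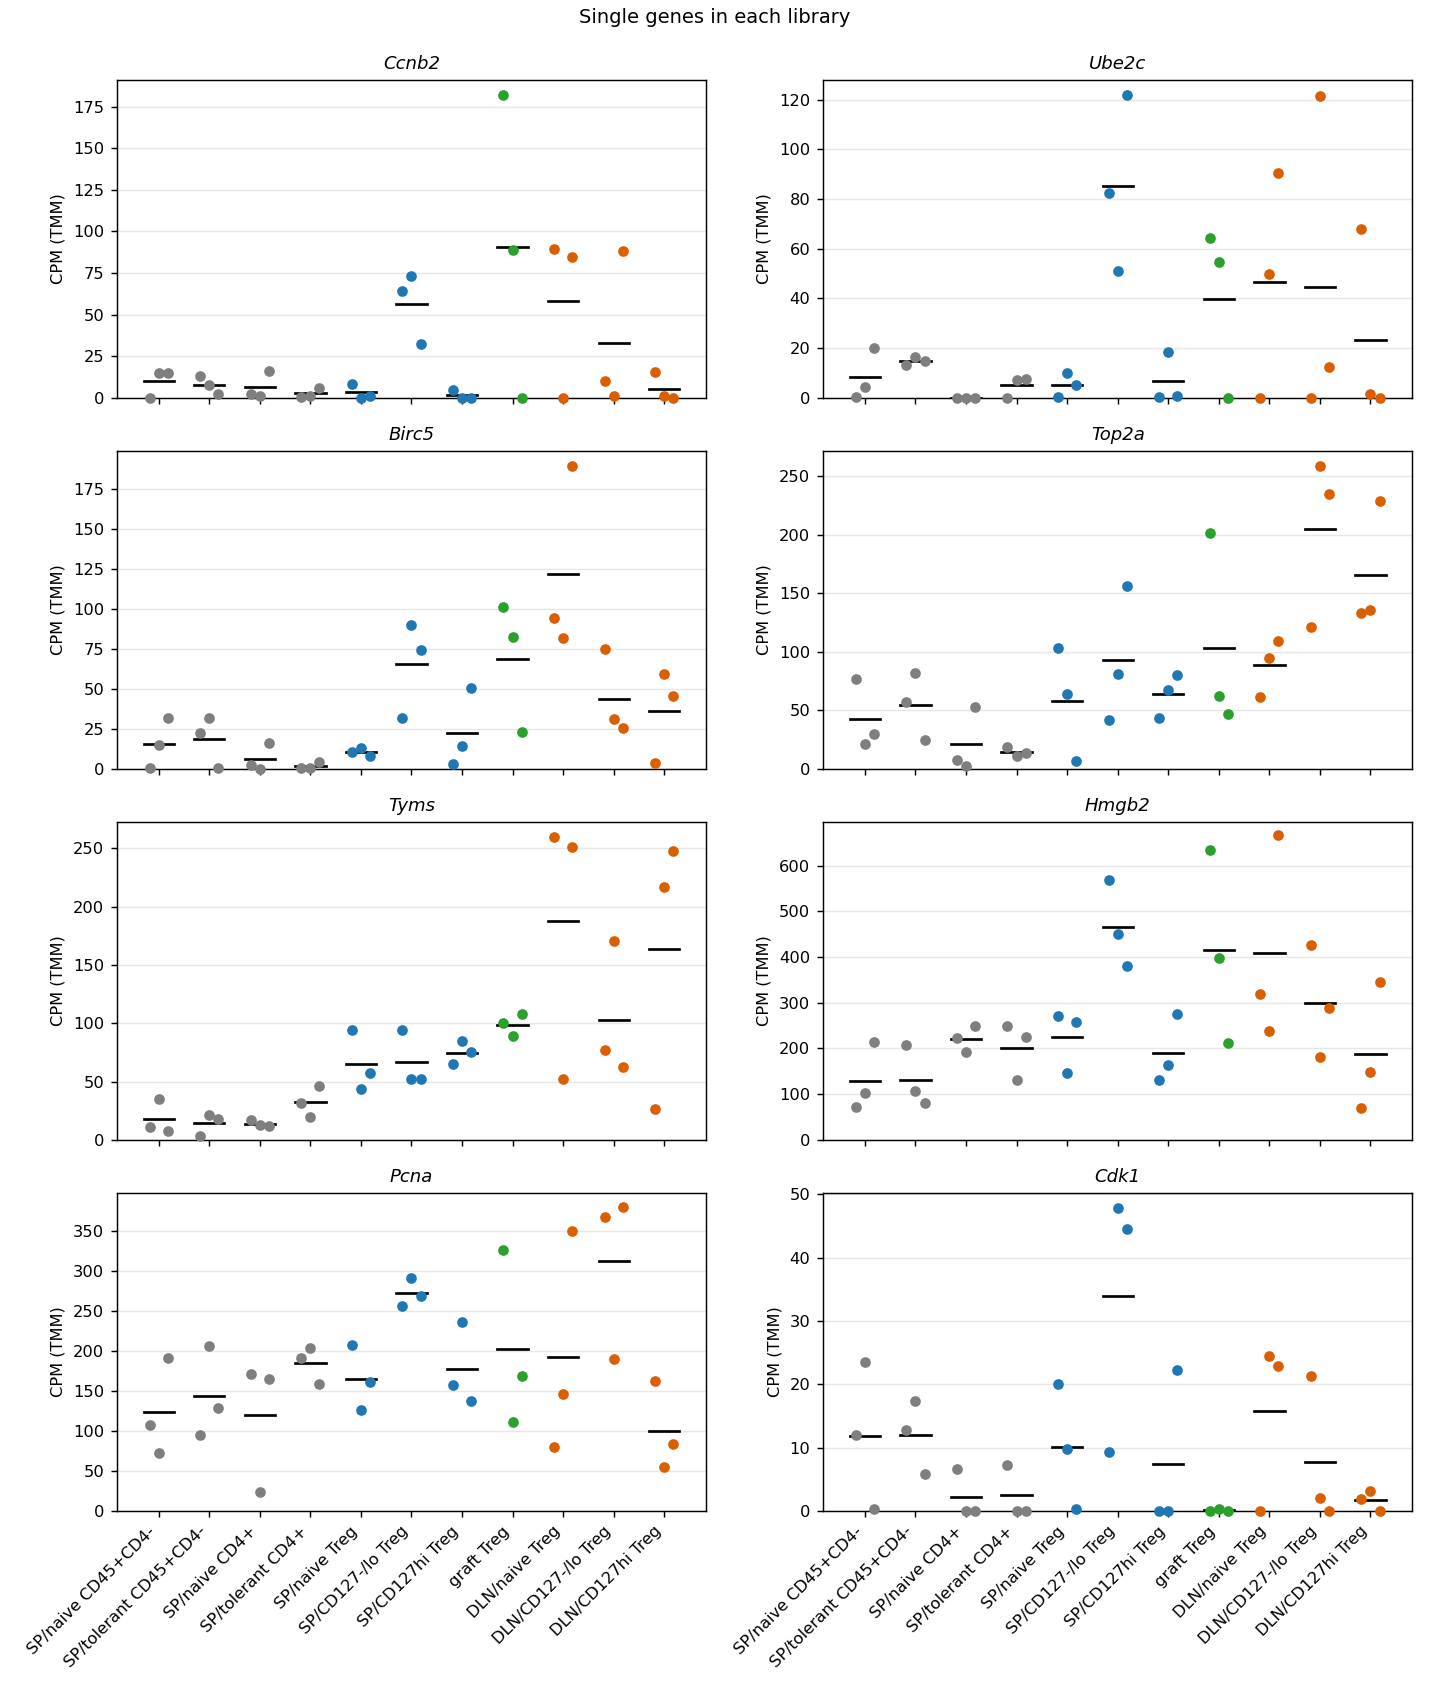
CPM (TMM scaled) of Ccnb2, Ube2c, Birc5, Top2a, Tyms, Hmgb2, Pcna and Cdk1 in every library, 1 point per library in the same colours by organ and cell type, with a bar at the mean of each subset (n = 3). Ccnb2 is at 32.3 to 73.2 in the SP/CD127-/lo and at 0 to 4.67 in the SP/CD127hi libraries, Cdk1 is at 0, 0.274 and 0 in the graft, and Tyms is at 43.3 to 94.4 in splenic Tregs and 12.2 to 46.1 in CD4+ T cells.

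SP/CD127hi Tregs were also compared with SP/naive Tregs and with tolerant CD4+ T cells. Against SP/naive Tregs 0 members were called (0.0197% of all genes), and Bub1 and Plk1, both lower, had an unadjusted p under 0.05, as 5.09% of all genes had. The medians were 0.09 for mitosis and 0.43 for S phase genes. Against tolerant CD4+ T cells 0 members were called as well (0.324% of all genes), with 6 at an unadjusted p under 0.05 (8.25% of all genes). Mki67 was at 23.99, 31.53 and 112 CPM against 7.29, 4.24 and 19.3 (2.43 ± 1.01, adjusted p = 0.420). Top2a was at 43.5, 67.6 and 80.5 against 18.2, 11.2 and 13.4 (2.16 ± 0.81, 0.328). Birc5, Aurka and Cenpf were the others that were higher, and Plk1 was lower. Mki67, Top2a, Cenpf, Mcm6, a helicase subunit, and Tyms were higher in all 3 Treg libraries, 5 of 34, where 6.98% of all genes were. The macrophage and monocyte markers (121 to 244 CPM in SP/CD127hi against 15.4 to 29.2 in tolerant CD4+ libraries), the T cell markers (2664 to 3377 against 4088 to 5579) and the reads on no gene (50.4 to 55.9% against 42.2 to 49.7%) did not overlap either. The same held for the NK cell markers (0.29 to 106 against 173 to 236 CPM) and the CD8 T cell markers (0 to 10.4 against 11.7 to 33.5). The part of all these in the result was not tested. In the first of these comparisons the likelihood ratio test, DESeq2 and the quasi-likelihood test without legacy mode called 0 members, and in the second 0, 2 and 0. The second had medians of 0.83 for mitosis and 0.59 for S phase genes. These comparisons share the SP/CD127hi libraries, and the earlier ones the SP/CD127-/lo, SP/naive and CD4+ libraries.

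Graft Tregs had a higher mean of Ccnb2, cyclin B2, than the splenic Tregs together (90.3 against 20.4 CPM). Ccnb2 was at 182, 88.9 and 0 CPM in graft replicates 1, 2 and 3. The SP/CD127-/lo libraries, with up to 73.2 CPM, lay between graft replicates 2 and 3, and SP/naive and SP/CD127hi Tregs were at or near 0. The edgeR quasi-likelihood test called Ccnb2 against the mean of the 3 splenic Treg subsets (3.75 ± 0.99, adjusted p = 0.0193), where 1.44% of all genes were called. This fitted value also depends on the prior count, because of the subsets at or near 0. Against SP/CD127-/lo Tregs alone Ccnb2 was not called. In the comparison with all splenic Tregs it lost the call without graft replicate 1 (2.73, adjusted p = 0.399). The likelihood ratio test called 1 member, DESeq2 also 1, which was Cdk1 and not Ccnb2, and the quasi-likelihood test without legacy mode 4. Under the stricter filter and with ComBat-Seq Ccnb2 lost the call. Cdk1, the kinase that Ccnb2 activates, went the other way. It was at 0, 0.274 and 0 CPM in the graft and at 0 to 47.8 in splenic Tregs, lower by a ratio of pooled counts of 180 (interval 32.2 to 7136, from 1 count in the graft), and did not pass (adjusted p = 0.109). Plk1 was at 0 in all 3 graft libraries.

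Other mitosis genes varied widely among the graft libraries. Cdc20, the activator of the anaphase promoting complex, was at 68.0, 0.274 and 0.298 CPM in the graft (2.96 ± 1.37, adjusted p = 0.465). Mki67 was at 174, 20.03 and 22.3. Top2a was at 202, 62.0 and 47.1. Graft replicate 1 was thus highest for all of these, and its 5 kidney markers summed to 117 CPM, against 890 and 15.8 in replicates 2 and 3. The mitosis median was 0.54 (14 of 22 above 0) and turned to -0.60 without graft replicate 1, while it was 0.93 without replicate 3. The S phase median was 0.18, and the median of all genes -0.05. Against single splenic subsets no member was called by the edgeR quasi-likelihood test: 0 against SP/naive (0.130% of all genes), 0 against SP/CD127hi (0.103%) and 0 against SP/CD127-/lo Tregs (0.0829%). At an unadjusted p under 0.05 there were 7, 4 and 3 members, where 7.93%, 8.73% and 7.66% of all genes had one. Counts by the likelihood ratio test were 0 in each. DESeq2 called 0, 0 and 1 and the quasi-likelihood test without legacy mode 2, 1 and 1. Cdk1 was in all 3 lists at the unadjusted threshold, with a ratio of 367 (interval 65.5 to 14540) between SP/CD127-/lo and graft Tregs (adjusted p = 0.260). Ccnb2 was called against SP/CD127hi Tregs without SP/CD127hi replicate 1 (adjusted p = 0.0199), with both libraries left at 0 and the graft mean at least 101-fold higher against the limit of 3 counts. The mitosis medians against the 3 subsets were 0.87, 0.48 and -0.38.

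In the draining lymph node the 3 corresponding Treg subsets were compared at lower depth. No member was called in DLN/CD127hi against DLN/naive Tregs (0.951% of all genes), in DLN/CD127-/lo against DLN/naive Tregs (0.355%) or in DLN/CD127hi against DLN/CD127-/lo Tregs (0.418%). At an unadjusted p under 0.05 there were 5, 4 and 6 members, where 10.6%, 8.79% and 8.75% of all genes had one. The likelihood ratio test and the quasi-likelihood test without legacy mode called 0 in each, and DESeq2 called 0, 2 (Mcm2 and Bub1) and 2 (Bub1 and Nusap1). Several genes were high in 1 library of a subset and near 0 in another. Nusap1 was at 73.8, 0.701 and 74.4 CPM in DLN/naive, 6.00, 122 and 52.3 in DLN/CD127-/lo and 3.89, 2.36 and 0 in DLN/CD127hi Tregs. It was lower in DLN/CD127hi than in DLN/naive (-4.53 ± 1.67, adjusted p = 0.228) and DLN/CD127-/lo Tregs (-4.80 ± 1.69, 0.230), and overlapped in the first pair only.

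S phase genes were among those at an unadjusted p under 0.05 here. Mcm2 was at 25.6, 35.03 and 11.8 CPM in DLN/naive and at 0, 2.99 and 0 in DLN/CD127-/lo Tregs, a ratio of pooled counts of 31.97 (interval 10.6 to 157, from 3 counts in DLN/CD127-/lo Tregs, adjusted p = 0.262). Mcm4, a subunit of the same helicase, was at 39.8, 9.96 and 14.7 in DLN/CD127-/lo and 74.0, 89.0 and 120 in DLN/CD127hi Tregs (2.12 ± 0.85, adjusted p = 0.350), without overlap. Rrm1, the large subunit of ribonucleotide reductase, went the other way, with 132, 79.7 and 210 CPM in DLN/CD127-/lo and 44.8, 0.788 and 0 in DLN/CD127hi Tregs (-3.21 ± 1.13, 0.230), also without overlap. It was called without DLN/CD127hi replicate 1, both against DLN/CD127-/lo (adjusted p = 0.00184) and against DLN/naive Tregs (0.0208). The DLN/CD127hi libraries left then held 1 count, and the ratios were 319 (interval 57.01 to 12620) and 87.4 (15.5 to 3471). Pcna was at 367, 190 and 379 CPM in DLN/CD127-/lo and 163, 54.4 and 84.0 in DLN/CD127hi Tregs (-1.64 ± 0.58, 0.238). The share of all genes without overlap was not counted for the lymph node.

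The medians in the lymph node were -1.46 for mitosis and -0.08 for S phase genes in DLN/CD127hi against DLN/naive Tregs, 0.10 and -0.49 in DLN/CD127-/lo against DLN/naive Tregs, and -0.29 and 0.61 in DLN/CD127hi against DLN/CD127-/lo Tregs. Over all genes they were 0.40, 0.58 and -0.01. With RLE in place of TMM scaling the first S phase median was 0.06. The DLN/CD127hi libraries also carried the macrophage and plasma cell markers given above. Their B cell markers summed to 140 to 423 CPM, against 3.10 to 38.3 in DLN/naive and 76.9 to 165 in DLN/CD127-/lo Tregs, and their CD8 T cell markers to 186, 1.58 and 120.3, against at most 70.1 in the other DLN libraries. The part of those cells in these values was not tested. Reads on no gene made up 50.9 to 63.9% in DLN/CD127hi and 42.8 to 50.7% in DLN/naive libraries, without overlap. Their part was not tested either. Whether the subsets differed otherwise in the lymph node than in the spleen was tested as an interaction. No member was called for CD127hi against CD127-/lo (0.118% of all genes), CD127hi against naive (0.225%) or CD127-/lo against naive Tregs (0.138%). At an unadjusted p under 0.05 there were 1 (Bub1), 2 (Cenpe and Nusap1) and 8, where 7.82%, 7.93% and 10.1% of all genes had one. Those 8, among them Ccnb2 (-4.94 ± 2.00, adjusted p = 0.384), Birc5 (-4.14 ± 1.61, 0.364) and Ube2c (-4.12 ± 1.97, 0.466), had lower values in the lymph node contrast than in the splenic one. The likelihood ratio test and the quasi-likelihood test without legacy mode called 0 in each, and DESeq2 1, 0 and 1.

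The other cells of the spleen, CD45+CD4- cells, were set against both classes of CD4+ cells as a further reference. Compared with CD4+ T cells they held more Bub1, Cenpf and Ube2c. Over the 6 CD45+CD4- libraries Bub1 was at 0.322 to 14.97 CPM (median 6.07), against 0 to 0.784 in CD4+ T cells. Cenpf was at 0.326 to 35.3 (median 6.27) and Ube2c at 0.306 to 19.96 (median 13.9), so that both overlapped the CD4+ libraries at their low end. The edgeR quasi-likelihood test called these 3 members, where 5.06% of all genes were called: Bub1 (5.46 ± 1.61, adjusted p = 0.0214), Cenpf (5.48 ± 1.43, 0.00681) and Ube2c (4.57 ± 1.25, 0.0108). These fitted values also depend on the prior count. Bub1 had 4 counts in all CD4+ libraries and a ratio of pooled counts of 34.8 (interval 13.3 to 130), and the means over subsets were 10.4 against 0.394 CPM for Cenpf and 11.5 against 2.49 for Ube2c. Bub1 lost its call without naive CD45+CD4- replicate 1 (3.79, 0.171) and without naive CD4+ replicate 1 or any tolerant CD4+ library (5.16 to 5.45, 0.0591 to 0.0705). It also lost it under the stricter filter and with ComBat-Seq. Cenpf and Ube2c kept theirs without any 1 of the 12 libraries, but Ube2c lost its call under the stricter filter and in the quasi-likelihood test without legacy mode. Without naive CD4+ replicate 3 there were 5 members called. The medians were 1.95 over the mitosis genes, 19 of 22 above 0, and 0.27 over the S phase genes, against 0.08 over all genes. All 6 libraries held the B cell markers given above, and tolerant CD45+CD4- libraries also held up to 2668 CPM of neutrophil and 2847 of plasma cell markers, whose part was not tested.

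Compared with splenic Tregs, CD45+CD4- cells held less of Tyms, which makes the thymidine nucleotide for DNA, and of Hmgb2. Tyms was at 3.59 to 34.9 CPM (median 14.5), below every splenic Treg library (43.3 to 94.4, median 65.0). Hmgb2 was at 70.9 to 214 (median 105) against 130 to 569 (median 270). Both fell by the edgeR quasi-likelihood test, Tyms by 2.10 ± 0.55 on the log2 scale (adjusted p = 0.00492) and Hmgb2 by 1.05 ± 0.34 (0.0324), where 7.03% of all genes were called. Tyms kept the call without any 1 of the 15 libraries. Hmgb2 was not called by the likelihood ratio test or with RLE scaling. It also lost the call without 8 libraries (naive CD45+CD4- replicates 1 and 2, tolerant CD45+CD4- replicates 2 and 3, SP/naive Treg replicates 1 and 3, SP/CD127-/lo replicate 1 and SP/CD127hi replicate 3), with log2 fold changes of -1.02 to -0.91 and adjusted p of 0.0594 to 0.140. No mitosis gene was called, and the mitosis median was 0.06 and that of S phase genes -0.01 (0.12 with RLE scaling), against 0.23 over all genes.

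Transplantation and treatment were compared in the Foxp3- subsets by tolerant against naive libraries. In CD4+ T cells 0 members were called (0.107% of all genes), with Ube2c higher and Cenpf lower at an unadjusted p under 0.05 (7.01% of all genes). Ube2c was at 0 in all 3 naive CD4+ libraries and at 0, 7.23 and 7.73 CPM in tolerant ones, at least 4.81-fold higher against the limit of 3 counts (adjusted p = 0.348). In CD45+CD4- cells 0 members were called (0.0355% of all genes), with Tpx2 at an unadjusted p under 0.05 (3.68 ± 1.83, 4.46% of all genes). DESeq2, the likelihood ratio test and the quasi-likelihood test without legacy mode called 2, 0 and 0 in CD4+ T cells (Bub1 and Cenpf by DESeq2) and 0 each in CD45+CD4- cells. The mitosis medians were -0.10 and 0.40 and the S phase medians 0.63 and 0.08.

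**Figure D4:**
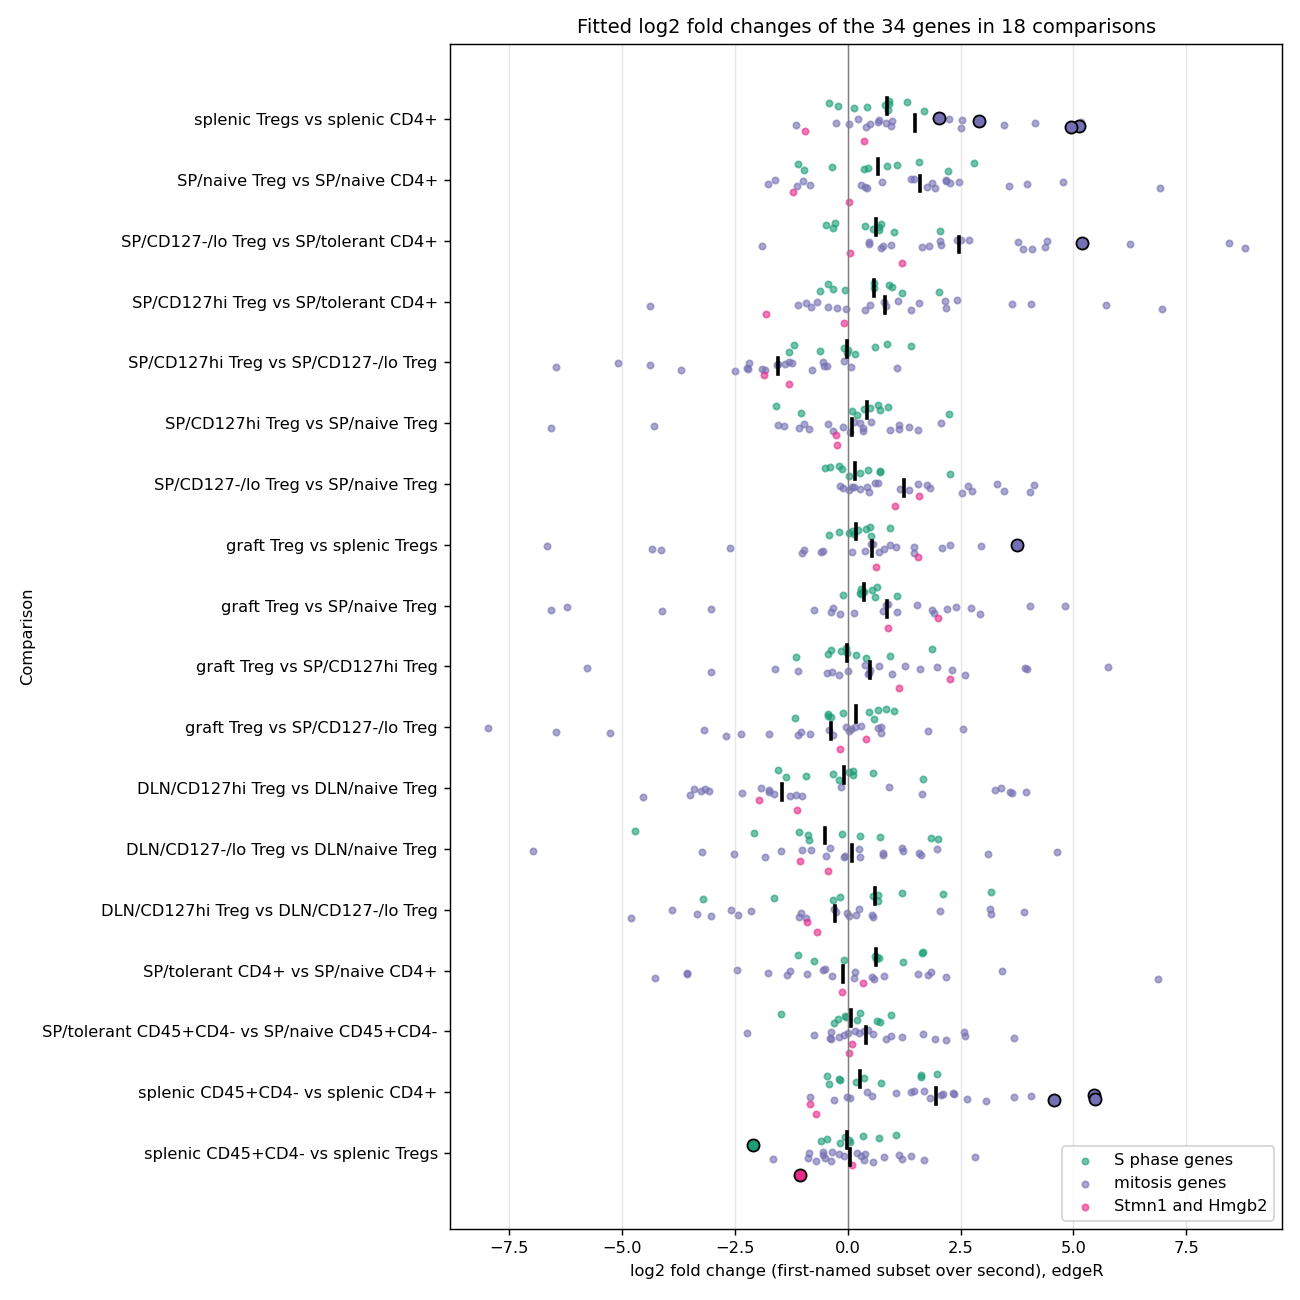
Fitted log2 fold changes of the 34 genes in the 18 comparisons, 1 point per gene, with black bars at the medians of the S phase and mitosis genes and large outlined points for genes called by the edgeR quasi-likelihood test (adjusted p under 0.05). The mitosis medians are 2.47 for SP/CD127-/lo Tregs against tolerant CD4+ T cells and -1.55 for SP/CD127hi against SP/CD127-/lo Tregs, while the S phase medians of these comparisons are 0.62 and -0.01.

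Further genes of the pathway were counted over the same 18 comparisons and 3 interactions. Over all genes tested 0.909% of these tests gave a call. Of 32 other replication genes 5 calls were made (0.744% of their tests) and of 14 tested cell cycle inhibitors (15 listed) 2 (0.68%), both shares under that of all genes. Of 46 other mitosis genes 17 were made (1.76%), of 16 regulators of the G1 to S transition 6 (1.79%), and of 11 histone genes 7 (3.03%). H2afz, the histone variant H2A.Z, was called in more comparisons of Tregs with CD4+ T cells than any other of these genes. It rose in splenic Tregs against CD4+ T cells (1.24 ± 0.22, edgeR adjusted p = 3.18e-05), from a mean of 448 to 1071 CPM. In SP/CD127-/lo Tregs it was at 1101 to 1658 CPM, against 276 to 502 in tolerant CD4+ T cells (1.81 ± 0.34, 0.000256), and in SP/CD127hi Tregs at 882 to 1208 (1.44 ± 0.34, 0.0162). Smc4, a condensin subunit, rose with it in splenic Tregs (0.79 ± 0.19, 0.00765). It was lower in DLN/CD127hi than in DLN/naive Tregs, at 750 to 948 against 1529 to 2092 CPM (-1.08 ± 0.30, 0.0413). Reads on no gene, given above, separated these libraries too, and their part was not tested.

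Further calls in Tregs were mostly of genes with low counts on 1 side. Ccne1, cyclin E1, was at 0 in all 3 SP/CD127hi libraries and at 5.98 to 47.9 CPM in tolerant CD4+ T cells (edgeR adjusted p = 0.0379). Dscc1, which helps to load the sliding clamp, was lower in splenic Tregs than in CD4+ T cells (means 3.22 and 11.1 CPM, adjusted p = 0.0314). In the graft 4 genes had higher means than in splenic Tregs, each with 1 or 2 graft libraries at 0. Spc25, a kinetochore subunit, was at 43.6, 108 and 0 CPM (mean 50.7 against 17.4, edgeR adjusted p = 0.00937). The SP/CD127-/lo libraries, with up to 83.8 CPM, lay within the range of the graft libraries, and the other splenic Treg subsets were near 0. Cdca5, which protects sister chromatid cohesion, was at 30.06, 0 and 22.05 (mean 17.4 against 0.869, 0.0120). Dscc1 (36.6 CPM, mean of splenic Tregs 3.22, 0.0496) and Hist1h2ab (8.51 CPM, mean of splenic Tregs 0, 0.00405) were each seen in a single graft library, replicates 1 and 2. In DLN/CD127hi against DLN/naive Tregs Cdca3 (0 and 47.1, 0.0298) and the inhibitor Cdkn2c (0.325 and 45.2, 0.0351) were lower. For Cdca3 the mean of 47.1 came from libraries at 0 to 141 CPM.

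In CD45+CD4- cells the pathway genes went in both directions. The D cyclins Ccnd2 (-1.42 ± 0.29) and Ccnd3 (-1.69 ± 0.39), Pttg1, the securin (-1.63 ± 0.37), and Smc4 (-0.70 ± 0.21) were lower than in CD4+ T cells, and Tk1, thymidine kinase, was higher (3.36 ± 0.98), as were Nuf2, Kif4, Kif18b and Hist1h1b, with edgeR adjusted p of 0.000209 to 0.0484. Against splenic Tregs H2afz (-1.67 ± 0.23), Pttg1 (-1.76 ± 0.35), Smc4 (-1.50 ± 0.20), Ccnd2 (-1.40 ± 0.28) and Melk were lower, and Mcm10, Espl1, Ccne1, Hist1h2ab and Klf2, a factor of quiescent T cells (1.10 ± 0.35), were higher, with adjusted p of 2.62e-10 to 0.0395. Spc25 was also called as higher (adjusted p = 0.0231), but at 0.611 to 44.5 CPM (mean 21.95) against 0 to 83.8 (mean 17.4). Its highest value was in SP/CD127-/lo Tregs.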

How the data were processed

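Bulk RNA-Seq counts of 33 libraries in 11 subsets were analysed. From the methods and the submitters' processing notes, the authors used FastQC for read quality, Trim Galore for trimming and STAR for alignment to the mouse genome mm10, to which EGFP had been added (versions are not given in the sources used here). Read pairs were assigned to Ensembl genes. HTSeq is given as the counting tool, although the layout is that of STAR gene counts. The deposited values are raw, unnormalized counts, and those summed over both strands were used. Rows that name no gene were left out. They held 37.01 to 63.55% of the reads in spleen and graft libraries and 42.8 to 69.15% in DLN libraries.

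Gene symbols were available for 30935 of 31054 genes. A level of 1 CPM or more in 1 library or more was required, and the 25347 genes that passed were fitted in 1 model of all 33 libraries, with TMM scaling and a mean per subset, by the quasi-likelihood test of edgeR 4.0.16 (R 4.3.3, limma 3.58.1). P-values were adjusted over all genes tested (Benjamini-Hochberg), and a gene was called at an adjusted p under 0.05. SE is the log2 fold change divided by the square root of F. Bounds against a group at 0 used 3 counts per library. Against groups with few counts the ratio of pooled rates is given with its exact 95% binomial interval. Alternatives were the likelihood ratio test, DESeq2 1.42.0, the quasi-likelihood test without legacy mode (chosen after seeing the data), RLE scaling, other filters, the compared libraries alone, ComBat-Seq (sva 3.50.0), a replicate block and leaving out each library. The model was tested on simulated data. Tables, promoter motifs and plots were made with Python 3.11.15, numpy 2.4.6, pandas 2.3.3 and matplotlib 3.10.9.

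The text names all 34 members, the Treg markers (the other marker lists are given as sums) and, of the lists of other replication genes, other mitosis genes, G1/S regulators, inhibitors and histones, up to 3 per direction and comparison with the largest changes among those called. A single call among the other replication genes is counted but not reported here. Members and lists were chosen with earlier results of these data known. No 2 of the 33 pairs of replicates held identical counts, and their chi-square per gene was 24.7 to 75.6. The replicate numbers were not taken to pair libraries, since no pair of subsets had every correlation of same-numbered deviations above 0.1.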

Additional observations from a re-analysis of the deposited data

Results flagged for a closer look

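Here 3 values stood out because the difference between Treg subsets was not the same in the lymph node as in the spleen, by the interaction term of the edgeR quasi-likelihood test. Spc25, a subunit of the Ndc80 complex that ties chromosomes to the spindle, was at 40.1, 83.8 and 28.4 CPM in SP/CD127-/lo, 1.49, 0 and 0 in SP/CD127hi and 0, 2.37 and 0 in SP/naive Tregs. In the lymph node it was at 0, 1.99 and 0 in DLN/CD127-/lo, 1.95, 0 and 138 in DLN/CD127hi and 0.710, 59.6 and 105 in DLN/naive Tregs. The log2 fold change of CD127hi against CD127-/lo Tregs was higher in the lymph node by 12.73 (adjusted p = 0.00211), and that of CD127-/lo against naive Tregs differed by -12.5 (adjusted p = 0.00208).

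Ccne1, cyclin E1, was at 10.5, 5.79 and 0.293 CPM in SP/CD127-/lo and 0 in all 3 SP/CD127hi libraries, and at 0.545, 1.99 and 0 in DLN/CD127-/lo and 13.6, 48.1 and 83.0 in DLN/CD127hi Tregs. Its CD127hi against CD127-/lo difference was higher in the lymph node by 12.86 (adjusted p = 0.0165). The sizes of these values depend on the prior count, since several subsets are at or near 0. Lymph node and sequencer cannot be told apart in them. Of the 34 members none was called in these interactions (0 by the edgeR quasi-likelihood test, with 1, 2 and 8 at an unadjusted p under 0.05).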

How the results depend on the processing

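Counts of members called are given per comparison in the order of the report. Splenic Tregs against CD4+ T cells (4) had 1 under the stricter filter (10 counts in 3 libraries), 1 with ComBat-Seq and 8 with the compared libraries alone. SP/CD127-/lo against tolerant CD4+ (1) had 0 by the likelihood ratio test, under the stricter filter and with ComBat-Seq, 2 without a filter, 3 by DESeq2, 8 without legacy mode and 11 with the compared libraries alone. SP/CD127hi against tolerant CD4+ (0) had 2 by DESeq2. SP/CD127hi against SP/CD127-/lo (0) and SP/CD127-/lo against SP/naive (0) each had 2 without legacy mode and 3 with the compared libraries alone. Graft against splenic Tregs (1) had 4 without legacy mode, 2 with the compared libraries alone and 0 under the stricter filter and with ComBat-Seq. Graft against SP/naive (0) had 2 without legacy mode and 1 with the compared libraries alone, against SP/CD127hi (0) 1 by each of these, and against SP/CD127-/lo (0) 1 by each and by DESeq2. DESeq2 called 2 in DLN/CD127-/lo against DLN/naive (0), 2 in DLN/CD127hi against DLN/CD127-/lo (0), 2 in tolerant against naive CD4+ (0) and 1 in the interactions of CD127hi with CD127-/lo and of CD127-/lo with naive (0 each). CD45+CD4- against CD4+ (3) had 7 by DESeq2, 8 without legacy mode, 1 under the stricter filter and 6 with the compared libraries alone. CD45+CD4- against splenic Tregs (2) had 1 by the likelihood ratio test and with RLE. The causes were not tested. The planned legacy setting is the default of the installed edgeR and so equals the reported test.

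Without single libraries the counts ranged from 2 to 5 for splenic Tregs against CD4+, 0 to 1 for SP/CD127-/lo against tolerant CD4+, SP/CD127hi against SP/CD127-/lo, graft against splenic Tregs, graft against SP/CD127hi, DLN/CD127hi against DLN/naive and DLN/CD127hi against DLN/CD127-/lo, 3 to 5 for CD45+CD4- against CD4+ and 1 to 2 for CD45+CD4- against splenic Tregs, and stayed at 0 to 0 in the others. With the replicate number as a block, graft against SP/CD127hi had 1 call (Ccnb2, 6.49, adjusted p = 0.0423) and the other counts stayed within 1.5 times. Over 33 pairs of subsets the correlations of same-numbered libraries were -0.099 to 0.107, so the numbers were not taken to pair libraries. As a hint from the data only, 48 of 99 libraries correlated best with their own number, where 33 would with unrelated numbers.

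Of the summed levels, the S phase sum of DLN/CD127hi Tregs was 735.7 with RLE, and that of SP/CD127-/lo Tregs 599.2 and the mitosis sum of naive CD45+CD4- cells 340.3 with library totals. RLE shifted the fold changes of all genes by 0.18 and 0.119 in DLN/CD127hi and DLN/CD127-/lo against DLN/naive, by 0.126 and 0.119 in CD45+CD4- against CD4+ and Tregs, and by 0.103 to 0.216 in the interactions.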
